A study of Mus musculus with 18 samples.

Results

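The AP-1 family was followed in hippocampal RNA through its 6 members *Fos*, *Fosb*, *Fosl2*, *Jun*, *Junb* and *Jund*, taken by symbol from the 15329 genes of the deposited table. All 6 had reads in each of the 18 libraries. The libraries come from WT and *Ccny* KO mice of the C57BL/6J strain, 8 to 10 weeks old, and *Ccny* encodes cyclin Y, a postsynaptic cyclin that binds actin. Untrained mice form the groups WT_Basal and KO_Basal. WT_OL and KO_OL mice had learned a hidden platform in the Morris water maze, called original learning, and WT_RL and KO_RL mice had gone on to reversal learning, in which the platform was moved. Each of the 6 groups held 3 mice with 1 library per mouse. The design of the KO allele and the time between the last trial and tissue collection were not given in the sources used here. The OL and RL groups differ from Basal in swimming, handling, time and read depth as well as in learning.

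AP-1 is a dimeric transcription factor. Fos proteins do not form stable dimers with each other and bind DNA together with a Jun protein, while Jun proteins can also pair among themselves. *Fos*, *Fosb* and *Junb* are among the immediate early genes, whose transcription starts within minutes of calcium entry and kinase signaling in neurons and ends soon after. *Jund* is known for a steadier level. *Fosb* also gives the truncated protein ΔFosB, which is stable and builds up with repeated activity. Its mRNA is a splice form of the same gene and cannot be separated here from full-length *Fosb*.

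The promoters of *Fos*, *Junb*, *Fosb* and *Jun* are shown as a description. They were chosen after it was seen that *Fos* and *Junb* moved together in what follows and *Jun* did not move with them. A link between motifs and these values was not tested. Each line holds the 130 bases before the RefSeq transcript start on GRCm38.p6, read along the gene. Capitals mark TGACG, the core of the cAMP response element bound by CREB, the TATA box TATAAA, and in *Jun* TGACATCA, a relative of the AP-1 element. The TGACATCA motif was added to the search after the window had been seen. The stretches are chr12:85473760-85473889 (plus strand, *Fos*), chr8:84978749-84978878 (minus strand, *Junb*), chr7:19310046-19310175 (minus strand, *Fosb*) and chr4:95052223-95052352 (minus strand, *Jun*).
Fos: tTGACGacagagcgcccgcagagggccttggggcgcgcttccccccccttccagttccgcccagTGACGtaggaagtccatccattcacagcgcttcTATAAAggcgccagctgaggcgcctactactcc
Junb: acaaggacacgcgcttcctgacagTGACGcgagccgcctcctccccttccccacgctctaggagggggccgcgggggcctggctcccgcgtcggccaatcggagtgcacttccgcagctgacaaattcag
Fosb: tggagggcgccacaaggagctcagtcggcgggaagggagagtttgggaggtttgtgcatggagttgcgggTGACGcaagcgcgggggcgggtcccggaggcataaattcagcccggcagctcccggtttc
Jun: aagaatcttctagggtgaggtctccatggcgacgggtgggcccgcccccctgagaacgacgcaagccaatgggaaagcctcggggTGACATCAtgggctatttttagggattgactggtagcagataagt

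In the full windows of 300 bases, from 250 before to 50 after the start, *Fos* held TGACG from base -129 and from base -66, *Fosb* from base -60 and *Junb* from base -106. TGACG or its reverse complement CGTCA was in 20.8% of the 32851 RefSeq promoter windows. The TATA box was at base -33 in *Fos* and at base 1 in *Junb*, whose GENCODE M21 start lies 30 bases further downstream, and 13.6% of windows held TATAAA on either strand. *Jun* held TGACATCA from base -45, a motif found on either strand in 3.62% of windows. None of the 6 windows held the full cAMP response element TGACGTCA (1.79% of windows), the AP-1 element TGANTCA (7.81%) or a CArG box, the site of serum response factor (1.63%), which says only that these letters are outside these windows. For *Fosl2* and *Jund* no motif was found, and their RefSeq starts lie 671 bases downstream and 1210 bases upstream of the GENCODE gene starts.

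In GENCODE M21 on GRCm38 (mm10), *Fos* lies on chromosome 12 at 85473890-85477273, *Fosb* on chromosome 7 at 19302696-19310051, *Fosl2* on chromosome 5 at 32135801-32157842, *Jun* on chromosome 4 at 95049034-95052222, *Junb* on chromosome 8 at 84974484-84978718 and *Jund* on chromosome 8 at 70698949-70700616. *Jun* and *Jund* are annotated as a single exon. Exons of *Jun*, *Junb* and *Jund* overlap exons of *Junos*, *Prdx2* and *Gm11175* on the opposite strand. The labels name a stranded kit, the study's methods name a kit without calling it stranded, and the strand setting of the counting is not given, so reads of these partners may be included.

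Values are read counts scaled to library size (CPM) with TMM normalization, recovered from the deposited log2(CPM + 1). Between 29248557 and 37915576 reads per library fell on listed genes, and 1 read was worth 0.0274 to 0.0333 CPM. Every Basal library held fewer such reads (at most 31509208) than every trained library (at least 31830344). In the study's mapping rates, the Basal libraries also lay below all KO_OL and RL libraries. WT_OL replicate 3 lay nearer to those than to WT_OL replicates 1 and 2. Every WT_OL library lay below every KO_OL library in mapping rate, so genotype and mapping run together after original learning. The part of depth and mapping was not tested in the training differences or in KO_OL against WT_OL. Nor was it tested in the genotype difference of the change from Basal to OL. Member counts ran from 109 reads for *Fosb* to 4968 reads for *Jun*. As a check of the labels, *Ccny* was at 107 to 158 CPM in the 9 WT libraries and at 74.0 to 95.8 CPM in the 9 KO libraries, without overlap, and was lower by 0.72 on the log2 scale in KO as the mean over the 3 training states (SE 0.06, adjusted p = 3.31e-05). Reads on an undeleted part of *Ccny* would remain in a KO, so the level checks the direction of the label only. Pairs of libraries within a group differed beyond counting noise, with a chi-square per gene of 8.77 to 104, highest between WT_OL replicates 2 and 3. All 11 hippocampal neuron markers were present in every library, led by *Camk2a* with a median of 4247 CPM. The summed level of 12 choroid plexus markers, led by *Ttr*, varied far more than any member: 59.2, 92.3 and 702 CPM in the KO_Basal mice, 909 to 4530 CPM in WT_Basal, 2506 to 4828 CPM in KO_OL, 1959 to 3407 CPM in WT_OL, 1405 to 5251 CPM in KO_RL and 51.2 to 8775 CPM in WT_RL. In whole tissue, fewer cells of a type and less RNA per cell cannot be told apart.

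Per kb of the longest annotated transcript, the Jun genes made up most of the family. Over the 18 libraries *Jund* averaged 34.8% of the 6-gene sum of CPM per kb, *Jun* 27.2%, *Junb* 23.8%, *Fosl2* 6.39%, *Fos* 5.88% and *Fosb* 1.85%. These are relative RNA levels and not amounts of protein. The 6-gene sum was 104 ± 4.62 CPM per kb in WT_Basal (SD, n = 3 here and below) and 120 ± 14 in KO_Basal, against 156 ± 15.2 in KO_OL, 151 ± 1.33 in WT_OL, 138 ± 3.89 in KO_RL and 130 ± 15.1 in WT_RL. The share of *Fos* was 3.01% ± 0.41 in WT_Basal and 6.22% ± 1.51 in KO_Basal, and reached 9.13% ± 2.05 in WT_OL. The share of *Jun* was 32.3% ± 0.96 in WT_Basal and 21.5% ± 4.94 in WT_OL, the group with the highest share of *Fos*.

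**Figure D1:**
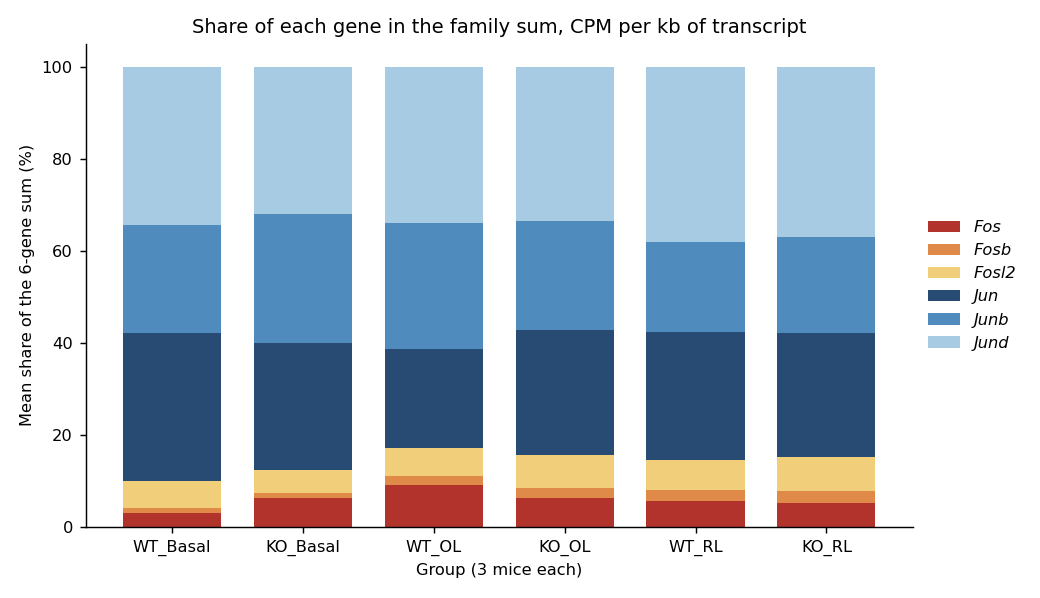
Mean share of each AP-1 gene in the 6-gene sum of CPM per kb of transcript, in percent, for the 6 groups of 3 mice. Warm colors are Fos genes and blue colors Jun genes; the *Fos* share runs from 3.01% in WT_Basal to 9.13% in WT_OL, and *Jund* has the highest mean share in each group (31.9% to 38.1%).

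The first question was which members changed with original learning in WT mice. *Fos*, the inducible partner of Jun proteins, was at 7.59, 5.73 and 6.43 CPM in WT_Basal and at 35.5, 29.1 and 22.4 CPM in WT_OL. *Fosb* was at 4.03, 3.63 and 4.07 CPM before and at 11.1, 8.84 and 11.8 CPM after original learning. *Junb*, an inducible Jun protein that activates AP-1 sites less strongly than Jun, was at 47.4, 44.3 and 39.9 CPM in WT_Basal and at 81.2, 75.8 and 68.0 CPM in WT_OL. In all 3 genes each WT_OL mouse was above each WT_Basal mouse. *Jund* was at 58.1, 60.8 and 59.4 CPM in WT_Basal and at 76.7, 97.9 and 80.7 CPM in WT_OL, again without overlap.

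These 4 members rose: *Fos* by 1.97 on the log2 scale (SE 0.22, 95% confidence interval 1.50 to 2.43, adjusted p = 0.000143), *Fosb* by 1.23 (SE 0.15, adjusted p = 0.000356), *Junb* by 0.76 (SE 0.15, adjusted p = 0.00531) and *Jund* by 0.50 (SE 0.09, adjusted p = 0.00421). A difference of log2(CPM + 1) means understates the change of low genes such as *Fosb*. *Fosl2*, which encodes Fra-2, was at 39.3, 43.3 and 38.7 CPM in WT_Basal and at 62.7, 45.6 and 73 CPM in WT_OL. It did not overlap but did not pass the threshold, with a difference of 0.54 (SE 0.18, adjusted p = 0.0688). It passed without WT_OL replicate 2, its lowest WT_OL mouse (0.73, adjusted p = 0.0252). Leaving out the mouse that most narrows a difference widens it by construction. Such a pass, here and below, shows how much 1 mouse weighs and is not support. *Jun* was at 112, 111 and 97.8 CPM before and at 99.1, 81.2 and 130 CPM after, with a difference of -0.07 (95% interval -0.39 to 0.25, adjusted p = 0.815). By the same limma test, 9.5% of all genes were called in either direction in WT_OL against WT_Basal, beside 4 of the 6 members, and 28.3% of all genes had groups that did not overlap, beside 5 of the 6. The median difference was 0.65 over the members and -0.00 over all genes. With 3 mice against 3, an exact permutation test of a single gene cannot give a two-sided p under 0.1.

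**Figure D2:**
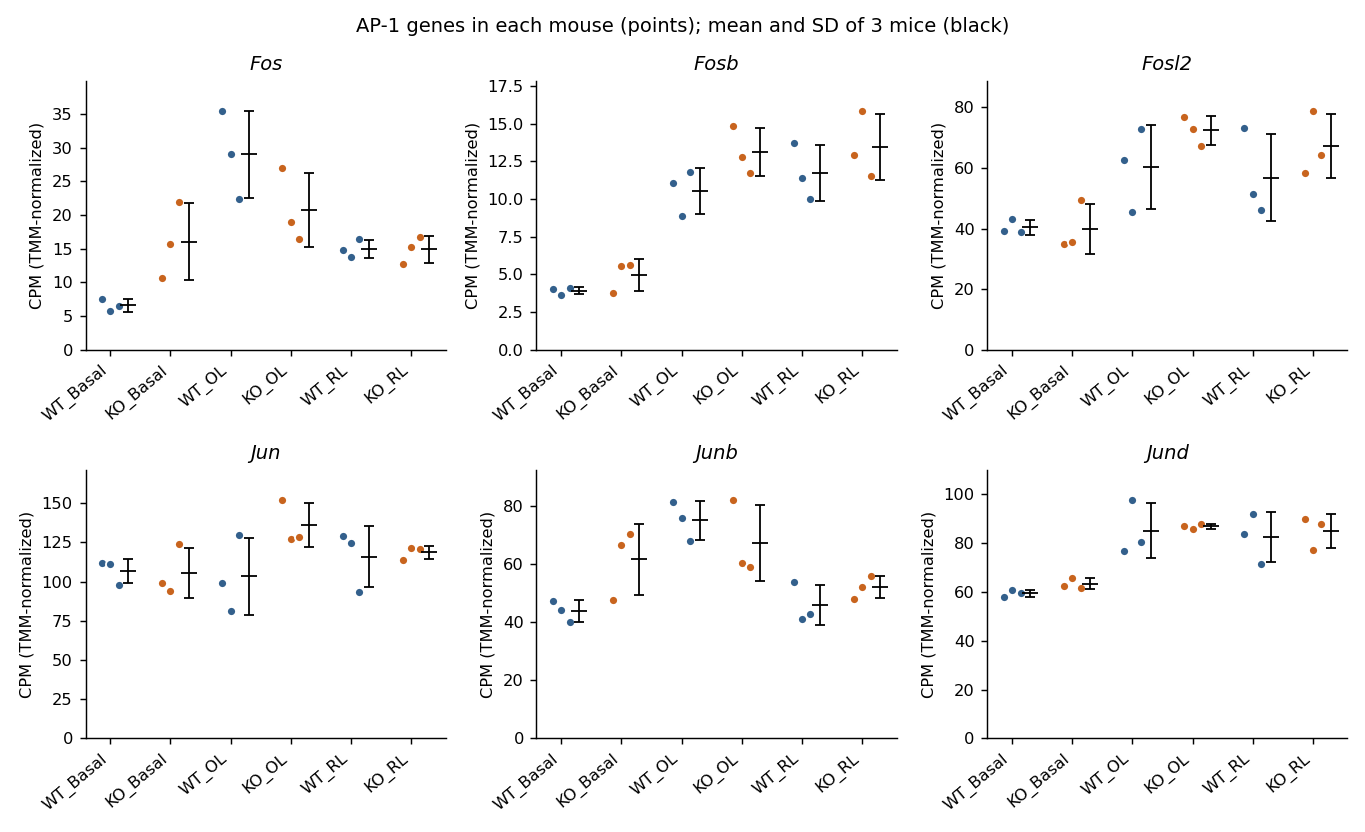
TMM-normalized CPM of the 6 AP-1 genes in each of the 18 mice, on linear axes that start at 0. Blue points are WT and orange points KO mice, and black bars give the mean and SD of 3 mice; *Fos* is lowest in WT_Basal (5.73 to 7.59 CPM) and highest in WT_OL (22.4 to 35.5 CPM), whereas *Jun* overlaps across most groups.

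In KO mice the members that rose with original learning were *Fosb*, *Fosl2* and *Jund*. *Fosb* was at 3.75, 5.54 and 5.60 CPM in KO_Basal and at 14.9, 12.8 and 11.7 CPM in KO_OL, a rise of 1.25 (SE 0.15, adjusted p = 5.81e-05). *Fosl2* was at 34.8, 35.7 and 49.5 CPM in KO_Basal and at 76.9, 73 and 67.4 CPM in KO_OL, a rise of 0.86 (SE 0.18, adjusted p = 0.0032). *Jund* was at 62.7, 65.8 and 61.7 CPM in KO_Basal and at 87.0, 85.9 and 88.0 CPM in KO_OL, a rise of 0.45 (SE 0.09, adjusted p = 0.00311). No KO_OL mouse overlapped a KO_Basal mouse in these genes.

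*Fos* and *Junb* overlapped between the untrained and trained KO mice. *Fos* was at 10.6, 15.6 and 21.9 CPM in KO_Basal and at 26.9, 19.0 and 16.4 CPM in KO_OL, a difference of 0.38 (95% interval -0.09 to 0.84, adjusted p = 0.225). *Junb* was at 47.6, 66.7 and 70.5 CPM in KO_Basal and at 82.2, 60.5 and 58.9 CPM in KO_OL, a difference of 0.13 (95% interval -0.19 to 0.44, adjusted p = 0.571). The KO_Basal values of both genes ranged widely, with replicate 1 lowest in each. *Jun* was at 99.1, 94.2 and 124 CPM in KO_Basal and at 152, 127 and 128 CPM in KO_OL, without overlap but short of the threshold (0.37, SE 0.15, adjusted p = 0.0898). It passed without KO_Basal replicate 3 (0.49, adjusted p = 0.0472). In KO_OL against KO_Basal 23.5% of all genes were called, beside 3 of the 6 members, and 48.8% did not overlap, beside 4 of the 6, and the median difference was 0.41 over the members. The choroid plexus markers moved with this comparison, since 12 of 12 were called higher with a median difference of 3.15, and their part in the member values was not tested.

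**Figure D3:**
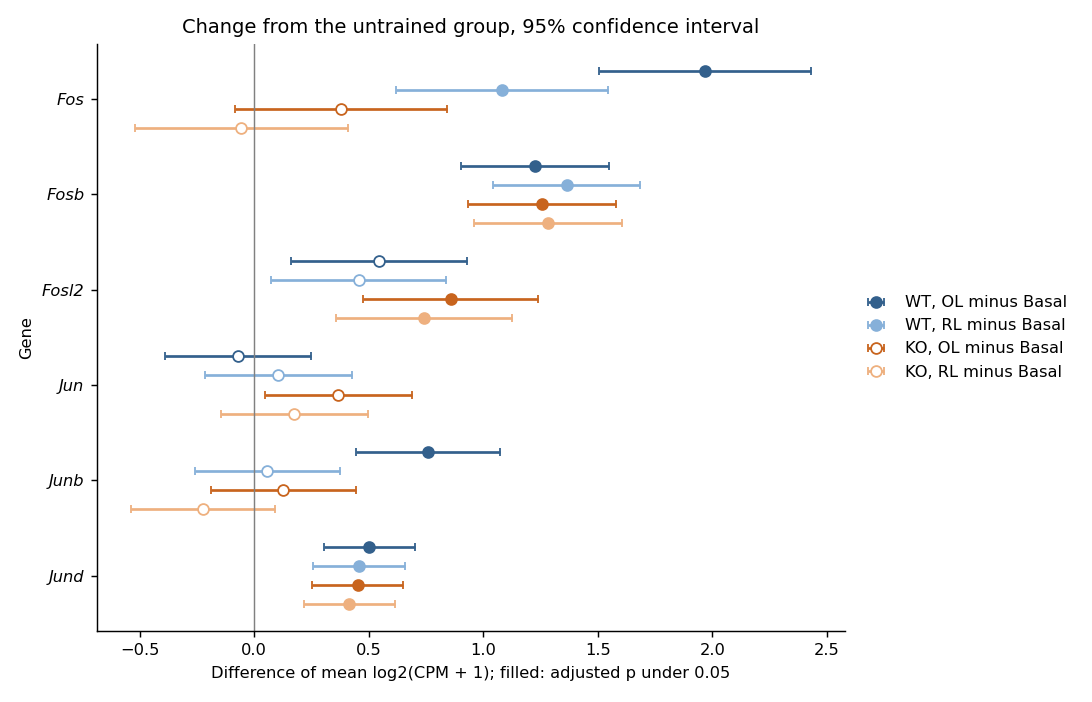
Difference of mean log2(CPM + 1) from the untrained group of the same genotype, with 95% confidence intervals from limma, for 6 AP-1 genes. Filled points passed an adjusted p under 0.05; *Fosb* and *Jund* are filled in all 4 comparisons, while *Fos* runs from 1.97 in WT after OL to -0.06 in KO after RL.

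After reversal learning *Fosb* and *Jund* were above the untrained level in both genotypes, *Fos* in WT and *Fosl2* in KO mice, and *Jun* and *Junb* were called in neither. *Fosb* was at 13.7, 11.4 and 10.0 CPM in WT_RL and at 12.9, 15.9 and 11.5 CPM in KO_RL, above each untrained mouse. It rose by 1.36 against WT_Basal (SE 0.15, adjusted p = 7.7e-05) and by 1.28 against KO_Basal (SE 0.15, adjusted p = 5.42e-05). *Jund* was at 83.9, 92.0 and 71.6 CPM in WT_RL and at 90.0, 77.1 and 87.9 CPM in KO_RL, and rose by 0.46 in WT (adjusted p = 0.00447) and by 0.42 in KO (adjusted p = 0.00522). *Fosl2* was at 73.1, 51.5 and 46.0 CPM in WT_RL and at 58.5, 78.9 and 64.2 CPM in KO_RL. It rose by 0.74 in KO (SE 0.18, adjusted p = 0.0078), and in WT it differed by 0.46 short of the threshold (SE 0.18, adjusted p = 0.0987), although the mice did not overlap. Without WT_RL replicate 3 the WT difference passed (0.59, adjusted p = 0.0491).

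*Fos* was at 14.8, 13.8 and 16.4 CPM in WT_RL, above WT_Basal by 1.08 (SE 0.22, adjusted p = 0.00403), and at 12.7, 15.3 and 16.7 CPM in KO_RL, where it differed from KO_Basal by -0.06 (95% interval -0.52 to 0.41, adjusted p = 0.88). *Junb* was at 54.0, 41.1 and 42.7 CPM in WT_RL and at 48.1, 52.1 and 55.8 CPM in KO_RL, with differences of 0.06 in WT (95% interval -0.26 to 0.37) and -0.22 in KO (95% interval -0.54 to 0.09). *Jun* was at 129, 125 and 93.5 CPM in WT_RL and at 114, 121 and 121 CPM in KO_RL, with differences of 0.10 and 0.17 whose intervals include 0. Against Basal, 3 of the 6 members were called in WT_RL, where 15.7% of all genes were, and 3 of the 6 in KO_RL, where 23.6% were. Groups did not overlap for 4 members in WT, beside 34.3% of all genes, and for 3 members in KO, beside 45.3%. The members' median difference was 0.46 in WT and 0.29 in KO.

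Directly between the trained groups, 0 members were called. In WT_RL against WT_OL, *Fos* differed by -0.89 (SE 0.22, unadjusted p = 0.0009, adjusted p = 0.106) and *Junb* by -0.70 (SE 0.15, unadjusted p = 0.000222, adjusted p = 0.062), and every WT_RL mouse was below every WT_OL mouse in both. Few genes were called in this comparison, 0.261% of all, and 11.1% did not overlap. Both differences passed without WT_OL replicate 3, the WT_OL mouse with the least *Fos* and *Junb* (*Fos* -1.05, adjusted p = 0.0142; *Junb* -0.77, adjusted p = 0.0129), and *Junb* also without WT_RL replicate 1 (-0.82, adjusted p = 0.0264). *Fosb* differed by 0.14 (95% interval -0.19 to 0.46) and *Jund* by -0.04 (95% interval -0.24 to 0.16). The 4 other members gave no unadjusted p under 0.05 here, where 2507 of all 15329 genes did. In KO_RL against KO_OL, where 0.0196% of genes were called and 13.2% did not overlap, *Jun* and *Junb* were the 2 members without overlap. *Junb* differed by -0.35 there (SE 0.15, unadjusted p = 0.0317, adjusted p = 0.968), *Jun* by -0.19 and *Fos* by -0.43 (95% interval -0.90 to 0.03). It was the 1 member under an unadjusted p of 0.05, *Junb*, beside 737 of all 15329 genes.

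The ratio of *Fosb* to *Fos*, both as CPM per kb, was read as a description. Its mean was 0.33 in WT_Basal, 0.21 in WT_OL and 0.44 in WT_RL, and 0.18 in KO_Basal, 0.36 in KO_OL and 0.51 in KO_RL. The single mice ran from 0.17 to 0.29 in WT_OL and from 0.34 to 0.52 in WT_RL, without overlap. This was not the only such step. WT_Basal mice, at 0.30 to 0.35, overlapped WT_RL but not WT_OL. KO_Basal mice, at 0.14 to 0.20, did not overlap WT_Basal, KO_OL (0.31 to 0.40) or KO_RL (0.39 to 0.58), while KO_OL and KO_RL overlapped. The ratio of *Junb* to *Jun* was 1.34 ± 0.37 in WT_OL against 0.72 ± 0.022 in WT_Basal and 0.71 ± 0.11 in WT_RL. In KO mice it was 1.03 ± 0.20 in KO_Basal, 0.87 ± 0.075 in KO_OL and 0.77 ± 0.037 in KO_RL, so that its mean was higher after original learning in WT and lower in KO, and this difference was not tested.

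Genotype was then compared within each training state. Untrained KO mice held *Fos* at 10.6 to 21.9 CPM against 5.73 to 7.59 CPM in untrained WT mice, without overlap. The difference was 1.12 on the log2 scale (SE 0.22, 95% interval 0.66 to 1.59, unadjusted p = 9.61e-05), which failed the adjustment over all genes (adjusted p = 0.368). *Junb* differed by 0.46 (SE 0.15, unadjusted p = 0.00663, adjusted p = 0.994), also without overlap, since its lowest KO_Basal mouse at 47.6 CPM lay just above the highest WT_Basal mouse at 47.4 CPM. *Jund* was the third member without overlap, with a difference of 0.09 (95% interval -0.11 to 0.29). *Fosb* differed by 0.26 (95% interval -0.06 to 0.59), *Fosl2* by -0.03 and *Jun* by -0.02. So 0 members were called and 3 did not overlap, where 0.0196% of all genes were called and 14.7% did not overlap. An unadjusted p under 0.05 was reached by 2 members, beside 613 of all 15329 genes. Without KO_Basal replicate 1, the KO_Basal mouse with the least *Fos*, the *Fos* difference was 1.37 and passed (adjusted p = 0.0417), and over all alternatives its adjusted p ran from 0.0417 to 0.9998. The choroid plexus markers were lower in these KO mice by a median of 2.55 on the log2 scale (median -2.55), with 0 of 12 called and 12 of 12 under an unadjusted p of 0.05, and their part in the *Fos* value was not tested.

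After original learning, 0 members were called between KO and WT mice. An unadjusted p under 0.05 was reached by 2 members, beside 2764 of all 15329 genes. *Fos* differed by -0.47 (95% interval -0.93 to -0.00, adjusted p = 0.274) and *Jun* by 0.42 (95% interval 0.10 to 0.74, adjusted p = 0.2), and the mice overlapped in all 6 members. *Jun* passed without WT_OL replicate 3 (0.59, adjusted p = 0.0151). In this comparison 0.0652% of all genes were called and 16.5% did not overlap. After reversal learning the differences ran from -0.01 for *Fos* (95% interval -0.48 to 0.45) to 0.25 for *Fosl2* (95% interval -0.13 to 0.64). Each member overlapped, and 0% of genes were called and 8.18% did not overlap. An unadjusted p under 0.05 was reached by 0 members, beside 756 of all 15329 genes. As the mean over the 3 training states, the KO and WT mice differed by 0.06 (*Jund*) to 0.25 (*Fosb*, unadjusted p = 0.0125, adjusted p = 0.49), and 0.0326% of all genes were called, *Ccny* among them. Beside 1281 of all 15329 genes, 1 member was under an unadjusted p of 0.05 for this mean.

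**Figure D4:**
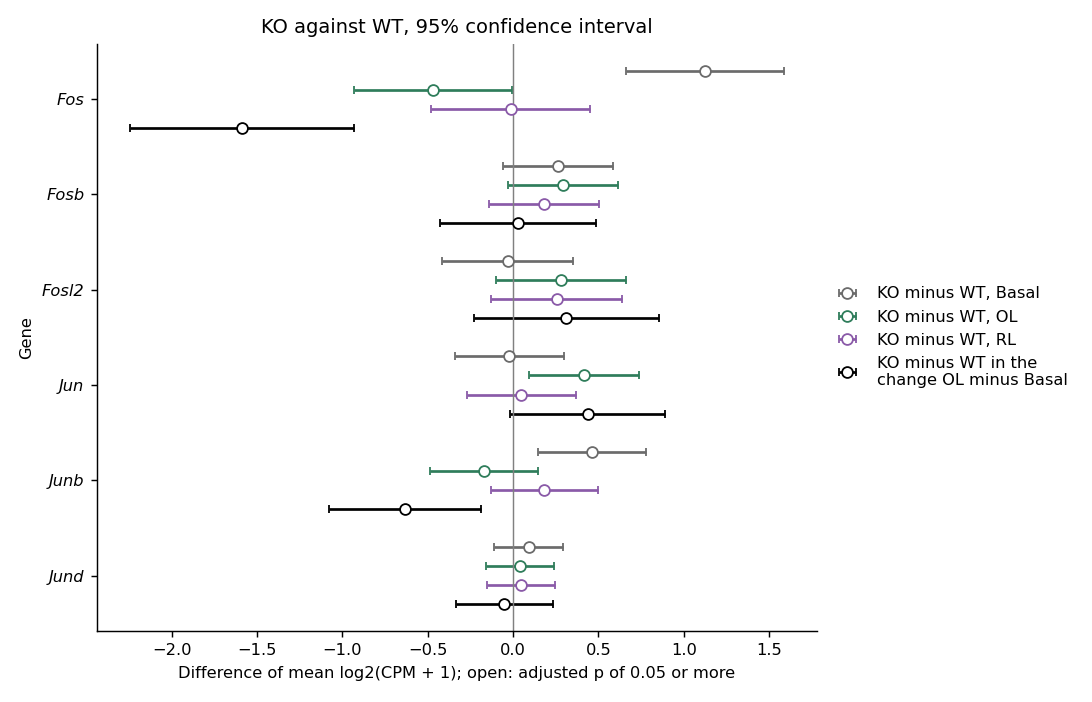
KO minus WT as the difference of mean log2(CPM + 1), with 95% confidence intervals from limma, within each training state and for the change from Basal to OL (black). All points are open because 0 of the 6 members passed an adjusted p of 0.05; *Fos* stands at 1.12 in Basal, -0.47 in OL, -0.01 in RL and -1.59 for the change.

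Whether the genotypes differed in the change itself was tested as an interaction. The change of *Fos* from Basal to OL was smaller in KO than in WT mice by 1.59 (interaction -1.59, SE 0.31, 95% interval -2.25 to -0.93, unadjusted p = 9.42e-05). It did not pass over all genes (adjusted p = 0.368), and 0% of genes were called for this interaction. It passed without WT_OL replicate 3, the WT_OL mouse with the least *Fos* (-1.76, adjusted p = 0.0352), which widens the difference by construction. The interaction was -0.63 for *Junb* (SE 0.21, unadjusted p = 0.00832, adjusted p = 0.388), 0.44 for *Jun* (95% interval -0.02 to 0.89) and 0.31 for *Fosl2* (95% interval -0.23 to 0.85). For *Fosb* it was 0.03 (95% interval -0.43 to 0.48) and for *Jund* -0.05 (95% interval -0.33 to 0.23). *Fos* and *Junb* were the 2 members under an unadjusted p of 0.05 for this interaction, beside 1908 of all 15329 genes. For the change from Basal to RL the interaction of *Fos* was -1.14 (unadjusted p = 0.00201, adjusted p = 0.908), and for the change from OL to RL it was 0.45 (adjusted p = 0.703). Of all genes 0% were called in either. In these 2 comparisons 1 member and 0 members were under an unadjusted p of 0.05, beside 765 and 1224 of all 15329 genes. The comparisons of WT_OL and of KO_Basal with WT_Basal share the WT_Basal mice, and so does this interaction, and the values of *Fos* in them (1.97, 1.12 and -1.59) are not independent of each other.

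Ordered by mean CPM, *Fos* went from 6.58 in WT_Basal to 14.9 in KO_RL, 15 in WT_RL, 16.1 in KO_Basal, 20.8 in KO_OL and 29.0 in WT_OL. WT_Basal was the only group of *Fos* that did not overlap with its neighbor in this order. For *Fosb* the step without overlap lay between KO_Basal (4.96) and WT_OL (10.6), with the 4 trained groups overlapping from there to 13.4 CPM in KO_RL. *Jund* was lowest in WT_Basal (59.4) and KO_Basal (63.4), which did not overlap, and then lay between 82.5 and 87.0 CPM in the 4 trained groups. *Junb* ran from 43.9 CPM in WT_Basal to 75 CPM in WT_OL with each group overlapping the next.

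Mice of the same group also differed among themselves, and 3 of the 15 pairs of members moved together there. Each value was taken as its deviation from the group mean, and the 15 pairs of members were tested by reordering mice within groups in all 46656 ways (exact permutation, two-sided, adjusted over 15 pairs). *Fos* and *Junb* went together over the 18 mice, with Pearson r = 0.817 (exact p = 0.00234, adjusted p = 0.0175) and Spearman rho = 0.798 (exact p = 0.0024). Without the 2 mice farthest from the median of *Fos*, KO_Basal replicates 1 and 3, r was 0.725. *Fosl2* went with *Jun* (r = 0.827, exact p = 0.00174, adjusted p = 0.0175; rho = 0.794, exact p = 0.00124; r = 0.800 without 2 mice) and with *Fosb* (r = 0.764, exact p = 0.00697, adjusted p = 0.0348; rho = 0.765, exact p = 0.00632; r = 0.747 without 2 mice). *Fos* and *Fosb* gave r = 0.414 (exact p = 0.225, adjusted p = 0.483) and *Fos* and *Jun* r = 0.111 (exact p = 0.725). *Jund* had negative r with all 5 others, from -0.359 to -0.018, none past the threshold. The WT_OL mice, which held the 2 libraries most unlike within a group, were then left out. The 3 pairs of members had r = 0.810, 0.761 and 0.710 over the remaining 15 mice, and 0 pairs passed the adjustment (lowest adjusted p = 0.0743, exact). That check was chosen after the data had been seen. Genes outside the family also had high r within groups, such as *Mpp2* with *Fosl2* (0.883) and *Amer3* with *Jun* (0.933). These were picked as most alike among 13977 genes, a choice that favors a high r by itself. They cannot show how common such an r is among pairs of genes. Whether an r of this size is particular to pairs of members was not tested.

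**Figure D5:**
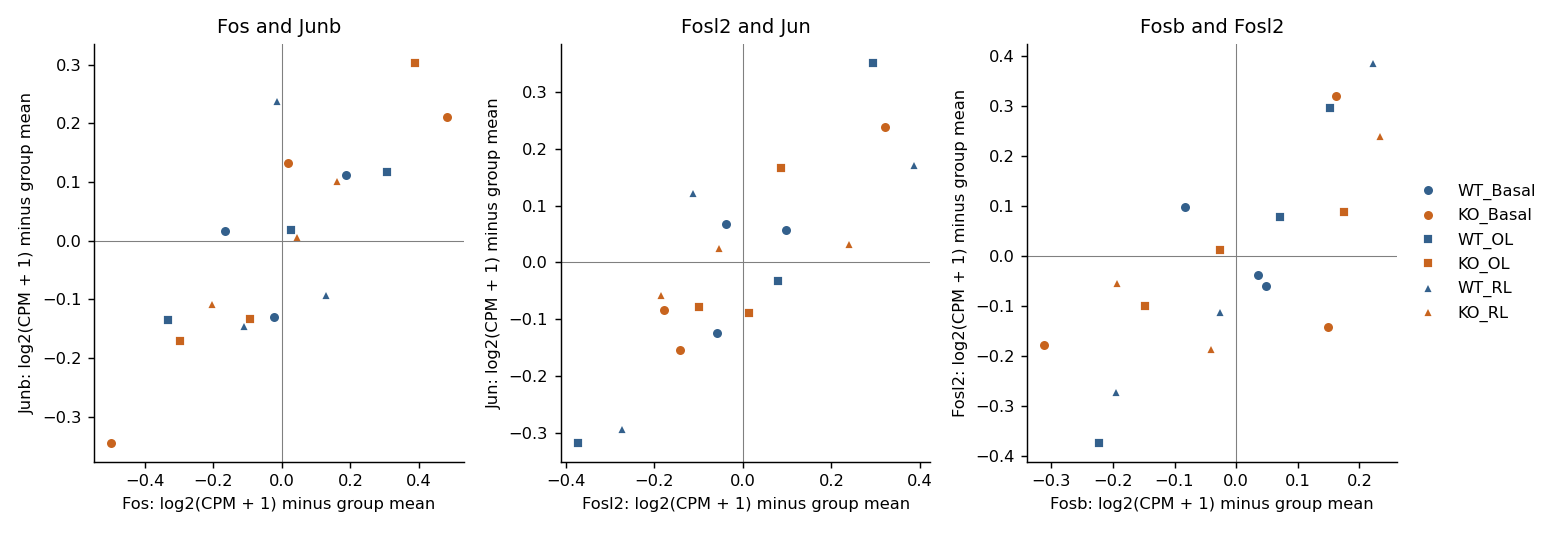
Deviation of log2(CPM + 1) from the group mean in each of the 18 mice, for *Fos* and *Junb*, *Fosl2* and *Jun*, and *Fosb* and *Fosl2*. Color gives the genotype and the symbol the training state; points run from lower left to upper right, with r = 0.817, 0.827 and 0.764.

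Among 13977 genes with a mean of at least 1 CPM, those whose log2 values followed each member most closely over all 18 libraries were listed, as a description in which training and depth are shared. For *Fos* they were *Arc* (r = 0.944), which encodes a synaptic protein of active neurons, the nuclear receptor gene *Nr4a1* (0.936), *Egr2* (0.907), *Junb* (0.842) and *Zbtb9* (0.830). *Junb* was followed by *Nr4a1* (0.897), *Fos* (0.842), *Egr2* (0.830), *Arc* (0.825) and *Dusp6* (0.822), a phosphatase that inactivates ERK. The other members had none of these activity-induced genes among their first 5. *Fosb* was followed by *Smarcc2* (0.964), *Rusc2*, *Rab11fip5*, *Zfp526* and *Plekhm1*, *Fosl2* by *Mpp2* (0.956), *Adnp2*, *Nuak1*, *Irgq* and *Ptprs*, *Jun* by *Grid1* (0.928), *Amer3*, *Gpc4*, *Kcng1* and *Zfp667*, and *Jund* by *Wdtc1* (0.956), *Rnf10*, *Tomm40*, *Ube2v1* and *Ptov1*.

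Genes around AP-1 were read as lists, each set beside a median over all genes that lay between -0.01 and 0.01 in the comparisons below. Against Basal, 3.88% of all genes were called higher in WT_OL and 11.2% in KO_OL, and 8.28% in WT_RL and 11.6% in KO_RL, and counts of genes that rose are to be read beside these shares. Called lower were 5.62% of all genes in WT_OL and 12.3% in KO_OL, to be read beside counts of genes that fell. Of 11 other activity-induced transcription factors, 8 rose in WT_OL against WT_Basal, led by *Egr2* (1.90), *Egr4* (1.26), *Nr4a1* (1.13) and *Egr1* (1.10), with a median of 0.83. In KO_OL against KO_Basal 7 rose, led by *Egr4* (1.29), *Egr1* (0.90), *Egr2* (0.86) and *Nr4a3* (0.65), with a median of 0.39. After reversal learning 2 rose in WT (*Egr4* 0.75 and *Klf4* 0.52) and 5 in KO, and *Egr2* fell by 1.26 from WT_OL to WT_RL (adjusted p = 0.0351). None of the 11 was called between untrained KO and WT mice, where their median difference was 0.24. An unadjusted p under 0.05 was reached there by 4 of them, beside 613 of all 15329 genes.

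Next were other bZIP proteins that pair with Fos or Jun. Of 8 listed, *Fosl1*, *Batf* and *Batf2* had no row in the table, and of the 5 measured only *Atf3*, a stress-induced factor, rose in KO_OL (0.74, adjusted p = 0.00898) and *Jdp2*, a repressor of AP-1 sites, in WT_RL (0.37), beside the 23.5% and 15.7% of all genes called in either direction in these comparisons. *Atf3* was low, with a mean of 1.57 CPM, and in WT_OL it differed from WT_Basal by 0.55, short of the threshold (adjusted p = 0.0708). Among 15 regulators of *Fos* and *Jun* transcription, 3 rose and 1 fell in WT_OL, where *Elk4*, a partner of serum response factor, rose by 0.67, the CREB coactivators *Crebbp* and *Crtc1* by 0.64 and 0.34, and *Mef2a* fell by 0.50. In KO_OL 8 rose and 2 fell, led by *Crebbp* (1.06), *Elk4* (0.78), *Mef2c* (-0.59) and *Mkl2* (0.55). Of 13 kinases that act on AP-1, *Map2k2*, which activates ERK, rose by 0.42 in WT_OL and by 0.43 in KO_OL, *Rps6ka3* fell by 0.51 in WT_OL and *Rps6ka2* rose by 0.39 in KO_OL. Of 14 late-response genes of active neurons, *Nptx2*, which encodes a secreted pentraxin, and *Vgf*, which encodes a neuropeptide precursor, rose in WT_OL (0.57 and 0.39) and in KO_OL (0.85 and 0.73). The summed level of the 14 genes did not rise in WT, at 1321 ± 24.3 CPM in WT_Basal and 1230 ± 237 CPM in WT_OL. In KO mice the sum was 1316 ± 72.4 CPM in KO_Basal and 1632 ± 53.7 CPM in KO_OL.

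Lists for stress and for other cells were read beside the members. Of 7 heat shock genes, 2 rose in WT_OL and 6 in KO_OL, and of 8 glucocorticoid-induced genes 2 and 5. After reversal learning 6 heat shock genes rose in each genotype, and 5 glucocorticoid-induced genes in WT and 6 in KO. Between genotypes, the heat shock genes *Hspa1a* and *Hspa1b*, near-identical copies between which reads may be split, were higher in KO_OL than in WT_OL by 1.44 and 1.54 (adjusted p = 0.0395 for each), 2 of the 10 genes called there. Of 8 astrocyte markers 3 rose in WT_OL, and in KO_OL 1 rose and 2 fell. Of 9 microglial markers 2 rose and 1 fell in WT_OL and 3 fell in KO_OL, and of 8 endothelial markers 1 rose in WT_OL and 3 fell in KO_OL. Of 8 oligodendrocyte markers 0 were called in these 2 comparisons. An unadjusted p under 0.05 was reached by 0 of them in WT_OL and 1 in KO_OL, beside 3971 and 5609 of all 15329 genes. Of 11 neuronal markers 1 rose and 1 fell in KO_OL. Of 8 hypothalamic and pituitary markers 1 fell in WT_OL, and their sum reached 106 CPM in a KO_Basal mouse and stayed between 3.57 and 4.92 CPM in WT_OL. The part of these cells and responses in the AP-1 values was not tested.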

How the data were processed

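Paired reads of 18 hippocampal libraries had been aligned to mm10 with STAR 2.5.1 and counted on genes by the authors, who normalized them with edgeR 3.12.1 (TMM) and deposited 1 table of log2 values for 15329 genes. The methods describe CPM floored at 1. The deposited log2 values themselves are log2(CPM + 1), since undoing that transform gave a whole number of reads for 100% of values (within 0.05 of a read), which also gave CPM and reads. The depth was 29248557 to 37915576 reads per library.

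Groups follow the library titles. limma 3.58.1 (R 4.3.3) fitted 1 mean per group to the log2 values of all 18 libraries, with a variance trend, 12 residual degrees of freedom and two-sided tests. The Benjamini-Hochberg adjustment ran over 15329 genes, each above 0 in at least 3 libraries, and called under 0.05. Each p-value rests on 1 spread per gene, pooled over all 18 libraries and moderated across genes. It does not measure the spread of only the mice compared, and groups differed in spread. The fit was tested on simulated data. Other steps used numpy 2.4.6, matplotlib 3.10.9 and pandas 2.3.3 under Python 3.11.15. Promoters come from RefSeq, matched by symbol for all 6 members.

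The members and gene lists were chosen with earlier results of these data known. Named genes are the members, *Ccny*, up to 4 called genes per list and comparison by size of change, and the 5 genes most correlated with each member. Alternatives were a floor of 1 CPM, a pseudocount of 0.5, a filter at a mean of 1 CPM, a fit of the compared groups only, fits with no trend or no moderation, voom on recovered reads, upper quartile and median of ratios scaling, library weights, a replicate block and each library left out.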

Additional observations from a re-analysis of the deposited data

How the results depend on the processing

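In the comparisons of OL or RL with Basal, the floor, the pseudocount, the filter, the fits with no trend or no moderation, voom and median of ratios scaling left the number of members called unchanged. When only the compared groups were fitted, *Jund* missed the threshold in WT_OL against WT_Basal (adjusted p = 0.0787) and *Jun* passed it in KO_OL against KO_Basal (adjusted p = 0.0256). *Fosl2* passed in WT_OL against WT_Basal with upper quartile scaling (adjusted p = 0.0367) and with library weights (adjusted p = 0.000225), which also added *Jun* in KO_OL against KO_Basal (adjusted p = 0.00649) and *Fosl2* in WT_RL against WT_Basal (adjusted p = 0.0189). For WT_RL against WT_OL, 0 members became 1 with upper quartile scaling (*Junb*) and 2 with library weights, and 0 to 2 when a library was left out. Library weights, which ranged from 0.208 for WT_OL replicate 2 to 7.03 for WT_OL replicate 1, also gave 4 members for KO_OL against WT_OL and 3 for the genotype difference in the change from Basal to OL. With WT_OL replicate 3 at a weight of 0.381, WT_OL rested mostly on replicate 1 in that fit. Leaving out a library gave 0 to 1 members for KO_Basal against WT_Basal, for KO_OL against WT_OL and for the genotype difference in the change from Basal to OL. The counts under alternative settings, here and below, stand without the share of all genes called under the same setting. They describe how the counts depend on the setting and are not a result about the members. *Junb* in KO_OL against KO_Basal, 0.13, changed sign without KO_Basal replicate 1 or KO_OL replicate 1, and ran from -0.045 to 0.23 over the libraries left out. The cause was not tested. Voom on recovered reads gave the same number of members called in each of the 13 comparisons.

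Equal replicate numbers gave no clear sign of shared animals or days, though this check cannot exclude them. Deviations of same-numbered libraries correlated from -0.600 to 0.514 over 45 pairs (12 over 0.1), and 5 of 18 libraries correlated best with their own number. A replicate block left 4 members called in WT_OL against WT_Basal, 3 in KO_OL, WT_RL and KO_RL against their Basal groups, and 0 elsewhere. Without division by transcript length the share of *Jund* was 23.3% in place of 34.8%, so that *Jun* (34.8%) came first, and *Fosl2* had 16.7% in place of 6.39%. Leaving out the 3 WT_OL libraries gave 0 correlated pairs of members in place of 3, and CPM in place of log2 values gave 3. *Fosb*, with 109 reads at its lowest, has the largest counting error of the members.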
